A study of Mus musculus with 183 samples.

Results

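Ccn1 and Ccn2 are standard readouts of the transcriptional co-activator YAP, and this account follows them with 6 related genes, Thbs1, Ankrd1, Amotl2, Lats2, Ajuba and Axl, in mouse embryonic stem cells (mESCs). These 8 genes, of 53380 in the count table, were selected by name with their measured values already known, so their levels, half-lives and binding are given as a description. Counts of them past a threshold stand beside the share of all genes past it, and are not read as evidence. Their levels and decay come from 47 libraries of an RNA half-life experiment, in which transcription was shut off with actinomycin D. Relative binding to the decay factors SKIV2L, XRN1 and MTR4 and to AVEN was measured by CRAC, which sequences RNA crosslinked to a tagged protein.

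The half-life experiment used 2 clonal lines. Clone 5F is Skiv2l fl/fl with Rosa26 Cre-ERT2/-, and has Aven. Clone 7E is Aven-/- and carries Rosa26 Cre-ERT2/BirA-V6 and 3xFLAG-Avi tags on Skiv2l. Its labels in this experiment name no floxed allele, whereas the study's methods give it as Aven-/- Skiv2l fl/fl. SKIV2L is the helicase of the cytoplasmic SKI complex, which feeds mRNA to the exosome for 3′ to 5′ decay, and AVEN is an RNA-binding protein studied as its partner. Cells grew on gelatin in serum and LIF and were taken before (day 0) or after 4 days of 0.1 µM 4OHT, which activates the Cre recombinase. At each day, mock libraries (DMSO for 6 h, taken as 0 min) were compared with cells that had spent 120, 240 or 360 min in actinomycin D. Each group held 3 libraries, except for 2 in clone 5F at day 0 and 120 min. The study calls these replicates technical, so the errors below measure the spread between libraries and not between cultures. Errors of half-lives and of changes in decay come from a straight line over all times, so they also hold the misfit of that line to a curved decay. The clones also differ in the tags, in BirA, in the level of Skiv2l mRNA before 4OHT and in being 1 line each. These differences cannot be told apart from the loss of AVEN.

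Depth was even, at 24540658 to 34208466 counts per library. The targeted genes were checked first. Aven was at 1004 ± 6.86 normalized counts (SD, n = 3) in day 0 mock libraries of clone 5F and at 66.9 ± 16.5 in clone 7E, a log2 difference of -3.90 ± 0.10 (adjusted p = 4.89e-19, edgeR). Skiv2l was at 4163 ± 36.5 in clone 5F at day 0 and at 4134 ± 296 in the libraries labelled day 4, and its log2 difference of -0.01 ± 0.050 (SE) did not pass the test (adjusted p = 0.914, edgeR's quasi-likelihood test). The counts span the whole gene and the floxed exons are part of it, so they do not check the deletion. In clone 7E, Skiv2l fell from 969 ± 67.5 to 388 ± 19.1 (adjusted p = 7.78e-13, edgeR). Its day 0 level was already below that of clone 5F, with a log2 difference of -2.10 ± 0.050 (SE). Mock libraries of clone 7E at day 4 held 189084 to 200706 counts of the ERCC spike-in RNAs added with the lysis buffer, against 78027 to 94216 in the other mock libraries. Normalized counts are counts divided by a size factor computed across genes, so every fold change below is relative to the bulk of genes and not per spike-in.

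YAP and its paralogue TAZ enter the nucleus when the Hippo kinases, which end in LATS1 and LATS2, are inactive, and there they bind TEAD factors on DNA. The pathway responds to cell contact, spreading and cytoskeletal tension. Targets that TEAD factors drive include secreted matrix proteins and also regulators that feed back on the pathway. Among the genes here, Ccn1 and Ccn2 encode secreted matricellular proteins that bind integrins, Thbs1 encodes the matrix glycoprotein thrombospondin 1, and Axl a receptor tyrosine kinase for the ligand GAS6. Ankrd1 encodes a nuclear and sarcomeric ankyrin repeat protein. Amotl2, Lats2 and Ajuba belong to the pathway itself: AMOTL2 is a scaffold that holds YAP in the cytoplasm, LATS2 phosphorylates YAP, and AJUBA is a LIM domain protein that restrains the LATS kinases.

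The 8 genes lie on 7 chromosomes (GRCm38, Gencode M21). Ccn1 is at chr3:145646976-145649981 on the minus strand, and Ccn2 at chr10:24595442-24598683 on the plus strand. RefSeq promoter sequences (GRCm38.p6, 250 bases before to 50 after the start of transcription) were at hand for 6 of them, all but Ccn2 and Thbs1. The motif bound by TEAD factors, GGAATG or its reverse complement CATTCC, was searched on both strands and occurred in the promoters of all 6, against 14.7% of 32851 promoters of the same length. Lats2 had 2 entries, and only 1 held it. None of these promoters held a CArG box, the motif of the serum response factor (1.63% of all promoters), or the AP-1 motif TGANTCA (7.81%). The windows below show the match nearest to the start for each gene in capitals, because YAP acts on DNA through TEAD factors. They are 30 bases long and read 5′ to 3′ along the gene.
Ccn1: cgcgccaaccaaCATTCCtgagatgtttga
Amotl2: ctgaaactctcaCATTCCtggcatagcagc
Ankrd1: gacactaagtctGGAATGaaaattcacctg
Ajuba: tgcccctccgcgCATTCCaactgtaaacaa
Axl: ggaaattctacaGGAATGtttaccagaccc
Lats2: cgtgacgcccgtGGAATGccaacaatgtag
The window of Ccn1 is chr3:145650071-145650100 on the minus strand, and its motif begins 103 bases before the start. The motif begins 65 bases before the start in Amotl2 (chr9:102717727-102717756, plus strand), 123 in Ankrd1 (chr19:36119950-36119979, minus strand), 164 in Ajuba (chr14:54577808-54577837, minus strand) and 233 in Axl (chr7:25788949-25788978, minus strand). In Lats2 (chr14:57746102-57746131, minus strand) it begins at base 5 of the transcript. A match is a description of the sequence and was not tested for binding here.

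The genes differed widely in level. Per kb of exon in clone 5F at day 0, Ajuba stood at 4163 normalized counts, Ccn2 at 615, Ccn1 at 575, Amotl2 at 375 and Thbs1 at 201. Lats2 (21.1), Ankrd1 (18.7) and Axl (18.1) lay at the bottom of the order, and the libraries of Ankrd1 spanned those of both its neighbours. In clone 7E at day 4, Ccn1 stood at 2197 per kb and was above Ccn2 at 1467, while Ajuba remained highest at 5205. Lats2 shares 2955 of its 6971 exonic nt with the gene model Gm49361 on the same strand, which had 0 counts in all 47 libraries, so reads from the shared part may not have been counted and its level is uncertain. Ccn2 shares 665 exonic nt with the antisense model Gm15270, which had 12.8 normalized counts on average in mock libraries, and the TruSeq v2 kit named in the labels of these libraries does not mark strand.

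**Figure D1:**
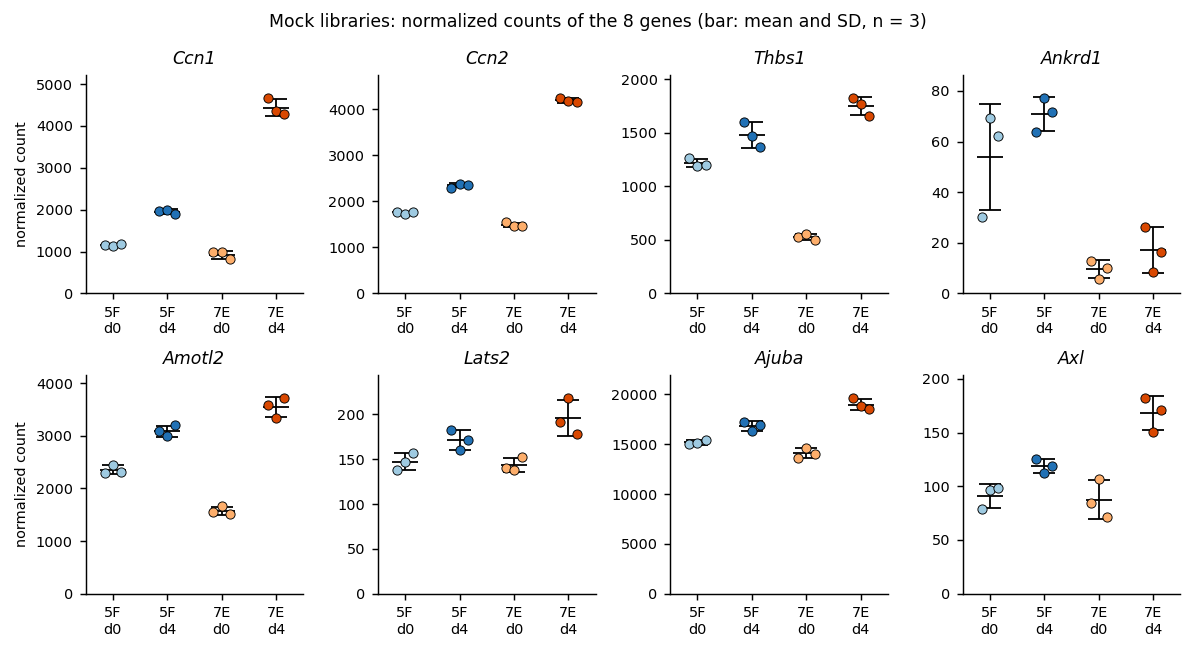
Normalized counts of the 8 genes (y axis, from 0) in the 12 mock libraries by clone and day of 4OHT (x axis, d0 and d4). Points are libraries and bars the mean and SD (n = 3): Ccn1 in clone 7E at day 4 lies at 4277 to 4669, above every other mock library.

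The comparison of day 4 with day 0 in clone 7E asks how steady-state mRNA responds to 4OHT in cells without AVEN. Here the largest log2 differences of the 8 genes were those of the matrix genes Ccn1, Thbs1 and Ccn2. Ccn1 was at 980, 985 and 817 normalized counts at day 0 and at 4669, 4360 and 4277 at day 4. Every day 4 library was above every day 0 library, and the fitted log2 difference was 2.26 ± 0.065 (SE), or 4.78-fold. Ccn2 was at 1542, 1471 and 1468 at day 0 and at 4250, 4180 and 4161 at day 4, a log2 difference of 1.49 ± 0.051. Its libraries fell in a tight band on each day and did not overlap. Thbs1 was at 527, 557 and 497 at day 0 and at 1827, 1774 and 1655 at day 4, a log2 difference of 1.73 ± 0.065 without overlap.

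The intracellular regulators differed by less. Amotl2 was at 1554, 1659 and 1507 at day 0 and at 3588, 3345 and 3715 at day 4 (log2 difference 1.17 ± 0.056), and the groups did not overlap. Ajuba, at 13620, 14589 and 14055 against 19604, 18805 and 18520, had a log2 difference of 0.43 ± 0.045. Lats2 gave the values 140, 138 and 153 against 192, 218 and 178 (0.45 ± 0.12). For these genes too, each day 4 library was above each day 0 library. Axl, the receptor, was at 84.4, 107 and 71.4 at day 0 and at 182, 151 and 171 at day 4, a log2 difference of 0.93 ± 0.15 without overlap. Ankrd1 was scarce, at 12.9, 5.86 and 10.2 against 26.4, 8.33 and 16.2, and its groups overlapped.

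All genes but Ankrd1, 7 of 8, were past an adjusted p of 0.05 in the higher direction in this comparison, where 20.7% of 16333 genes tested were higher and 19.4% lower. Since the genes were chosen with these values known, nothing is read from that count. Their median log2 difference was 1.05, beside -0.0084 over all genes. Scaling each library to its own spike-ins moved the median of all genes in this comparison to -1.11, and on that scale Ccn1 (1.16 ± 0.065), Thbs1 (0.63 ± 0.067) and Ccn2 (0.39 ± 0.050) stayed above 0, Amotl2 was at 0.08 ± 0.060, and Ajuba (-0.67), Lats2 (-0.65), Ankrd1 (-0.27) and Axl (-0.16) were below 0. Relative to that median, Ccn1 was at 2.26 and Ajuba at 0.44. The calls of Amotl2 and Axl were lost on that scale, and the call of Lats2 without replicate 2.

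In clone 5F the same comparison, of libraries labelled day 4 with day 0, gave smaller differences in the same direction for the leading genes. Ccn1 was at 1161, 1138 and 1182 at day 0 and at 1968, 2003 and 1897 at day 4. The groups did not overlap, and the log2 difference was 0.75 ± 0.052 (1.69-fold). Ccn2 had 1766, 1736 and 1777 at day 0 and 2299, 2388 and 2360 at day 4 (0.42 ± 0.048). Amotl2, with 2302, 2453 and 2319 against 3084, 2992 and 3199, gave 0.39 ± 0.048. Thbs1, with 1264, 1192 and 1201 against 1605, 1467 and 1369, gave 0.28 ± 0.060. In each of these genes the 2 groups of libraries were separate.

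The other genes differed by less in clone 5F, or with a larger error. Ajuba differed by 0.15 ± 0.043 and Axl by 0.38 ± 0.13, and their libraries did not overlap either. Lats2 was at 138, 147 and 157 against 183, 160 and 172, a log2 difference of 0.22 ± 0.11, also without overlap. Ankrd1 spread from 30.2 to 69.1 at day 0 and overlapped day 4 (63.8 to 77.2). Past the threshold were 6 of the 8, all higher, where 12.8% of 16349 genes were higher and 11.6% lower, and again nothing is read from the count. Without replicate 1 or without replicate 3, with a replicate block or with own spike-in scaling, Ajuba and Axl were lost and 4 remained. Axl was also lost with DESeq2 and with no filter on low counts.

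**Figure D2:**
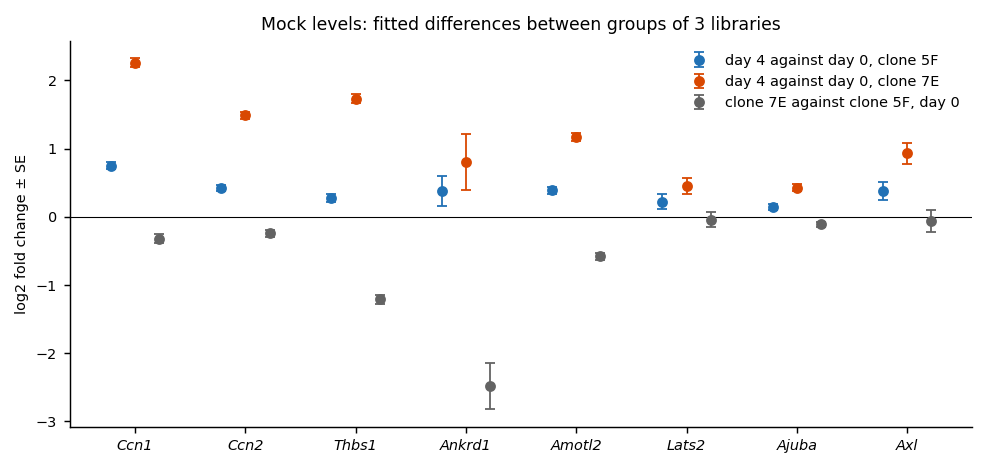
Fitted log2 fold changes of mock levels (y axis, ± SE) for each gene (x axis) in 3 comparisons between groups of 3 libraries. The day 4 values lie above 0 in both clones and are larger in clone 7E, with 2.26 for Ccn1 against 0.75 in clone 5F; Ankrd1 has the widest bars.

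The interaction of clone and day gives the difference between these day effects. It was 1.50 ± 0.084 on the log2 scale for Ccn1, 1.45 ± 0.090 for Thbs1 and 1.07 ± 0.062 for Ccn2. It came to 0.78 ± 0.072 for Amotl2 and 0.28 ± 0.057 for Ajuba, and these 5 genes were past the threshold in the higher direction, where 6.65% of 17209 genes were higher and 5.29% lower. Axl (0.56 ± 0.20), Ankrd1 (0.44 ± 0.51) and Lats2 (0.22 ± 0.15) were not. Own spike-in scaling moved the median of all genes to -1.03 here, with Ccn1 at 0.47, Thbs1 at 0.42 and Ccn2 at 0.04, and with Amotl2 (-0.24), Axl (-0.47), Ajuba (-0.75) and Lats2 (-0.80) below 0. On it the call of Ccn2 was lost, and Axl and Lats2 were called lower. Ajuba was lost without replicate 1.

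Before 4OHT, most of the genes were lower in clone 7E than in clone 5F. Thbs1 was the clearest case among the abundant genes, at 527, 557 and 497 against 1264, 1192 and 1201, a log2 difference of -1.21 ± 0.061. Ankrd1 was at 12.9, 5.86 and 10.2 against 30.2, 69.1 and 62.3, a log2 difference of -2.48 ± 0.34 that rests on few counts. Amotl2 differed by -0.58 ± 0.049, Ccn1 by -0.32 ± 0.064 and Ccn2 by -0.24 ± 0.048, each without overlap. Ajuba, at -0.11 ± 0.039, was also separate between the clones. Lats2 (-0.04 ± 0.11) and Axl (-0.06 ± 0.16) overlapped. Past the threshold were 6 of 8, all lower, where 19.7% of 16299 genes were lower and 20.0% higher. The call of Ajuba was lost without replicate 1 and without replicate 3. Own spike-in scaling moved the median of all genes to -0.17 here and kept all 8 values below 0. This comparison shares the day 0 libraries of clone 7E with the day comparison above, so low values there enter both.

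The other genes of the pathway come from lists chosen beside the 8 genes, and a difference is reported here by edgeR's quasi-likelihood test with adjustment over all genes. Counts in these lists and in the marker lists below are to be read beside the shares of all genes. At day 4 these were 20.7% higher and 19.4% lower in clone 7E, and 12.8% and 11.6% in clone 5F. Between the clones at day 0 they were 20.0% and 19.7%, and for the interaction 6.65% and 5.29%. No list was tested as a set. On own spike-in scaling, where the median gene in clone 7E was at -1.11, the day 4 values of Nt5e, F3, Ptpn14, Wwtr1, Amot, Yap1, Thbs4, Cd47, Itgb3, Itgb1, Actb and Col4a1 in that clone were below 0, so their direction holds only relative to the bulk of genes. Over the mock comparisons, 10 of 65 values of other named genes kept their sign on that scale but lost their call. Other rises given below may therefore also hold only relative to that bulk. Of 16 further YAP targets, 13 were tested, and in clone 7E at day 4 8 rose and 0 fell, with a median log2 difference of 0.37. Myof, a membrane repair protein, rose by 1.14 ± 0.052 (adjusted p = 1.59e-14), Nt5e, an ectonucleotidase, by 0.74 ± 0.19 (adjusted p = 0.00272), F3, tissue factor, by 0.69 ± 0.12 (adjusted p = 4.31e-05), and Ptpn14, a phosphatase that binds YAP, by 0.37 ± 0.050 (adjusted p = 1.96e-06). In clone 5F, 2 rose and 0 fell, Myof by 0.48 ± 0.046 (adjusted p = 1.66e-07). The interaction was past the threshold for 4 of 14, among them Myof (0.66 ± 0.064, adjusted p = 1.15e-07). Before 4OHT, 7 were lower and 3 higher in clone 7E, with F3 at -1.82 ± 0.098 (adjusted p = 4.95e-13), Nt5e at -1.75 ± 0.14 (adjusted p = 5.47e-10) and Crim1 at -1.31 ± 0.080 (adjusted p = 3.81e-12).

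Of 25 further Hippo pathway genes, all tested, 16 rose and 4 fell in clone 7E at day 4 (median 0.18), beside 20.7% and 19.4% of all genes. In clone 5F 7 rose and 4 fell (median -0.01), beside 12.8% and 11.6%. Amot, a paralogue of Amotl2, rose by 1.08 ± 0.079 in clone 7E (adjusted p = 1.13e-10), with an interaction of 1.07 ± 0.097 (adjusted p = 4.97e-08). That of Amotl1, the third member of the family, was 0.57 ± 0.079 (adjusted p = 2.22e-05). Wwtr1, which encodes TAZ, rose by 0.75 ± 0.063 (adjusted p = 1.11e-09), and Tead2 fell by 0.50 on the log2 scale (SE 0.051, adjusted p = 3.50e-08). Yap1 itself, named after its values were seen, differed by 0.12 ± 0.046 in clone 7E (adjusted p = 0.0401) and 0.14 ± 0.043 in clone 5F (adjusted p = 0.0208). Both calls were lost with a replicate block and without replicate 1, and the value in clone 7E was -0.98 on own spike-in scaling. In clone 5F, Taok3, an upstream kinase, rose by 0.41 ± 0.10 (adjusted p = 0.00667) and Wwc2 by 0.35 ± 0.051 (adjusted p = 3.85e-05), and Limd1, a relative of Ajuba, fell by 0.30 on the log2 scale (SE 0.056, adjusted p = 0.000614). The values in clone 7E were similar for Wwc2 (0.47 ± 0.047) and Limd1 (-0.28 ± 0.061) but not for Taok3 (-0.14 ± 0.11). Before 4OHT, 9 of the 25 were lower in clone 7E, with Amot at -1.32 ± 0.072 (adjusted p = 4.95e-13), and 6 were higher, with Wwc2 at 0.56 ± 0.043 (adjusted p = 2.11e-10).

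Of 13 relatives of the 8 genes by family, 10 were tested in clone 7E at day 4, and 4 rose and 2 fell. Ccn4, another matricellular CCN gene, rose by 2.22 ± 0.30 (adjusted p = 2.30e-06) from low counts of 1.27 CPM on average, and in clone 5F by 0.64 ± 0.20 (adjusted p = 0.0212). Its interaction was 1.58 ± 0.36 (adjusted p = 0.00483). Thbs4 rose by 0.66 ± 0.25 (adjusted p = 0.0352) and in clone 5F by 0.68 ± 0.19 (adjusted p = 0.0111). The receptors related to AXL went the other way, with Tyro3 at -0.83 ± 0.062 (adjusted p = 1.26e-10) and Mertk at -0.42 ± 0.14 (adjusted p = 0.0194). In clone 5F 3 of 9 rose and 2 fell, Tyro3 by 0.30 on the log2 scale (SE 0.057, adjusted p = 0.000542). Before 4OHT 7 of 10 were lower in clone 7E and 1 higher, with Ccn4 at -1.74 ± 0.32 (adjusted p = 0.000132), Thbs2 at -0.98 ± 0.33 (adjusted p = 0.0216) and Mertk at -0.76 ± 0.11 (adjusted p = 5.23e-06).

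Among 8 integrins and thrombospondin receptors, 7 were tested, and 6 rose and 0 fell in clone 7E at day 4, against 3 and 0 in clone 5F. Cd47, a receptor of thrombospondin 1, rose by 0.64 ± 0.15 (adjusted p = 0.00117), Itgb3 by 0.63 ± 0.15 (adjusted p = 0.00180) and Itgb1 by 0.38 ± 0.051 (adjusted p = 1.78e-06). Itga5, a fibronectin receptor subunit, rose by 0.48 ± 0.055 in clone 5F (adjusted p = 1.80e-06), and its value in clone 7E was 0.45 ± 0.061. Before 4OHT, Itgb1 was higher in clone 7E by 0.51 ± 0.044 (adjusted p = 1.20e-09), the opposite direction to Thbs1. Of targets of SRF and its co-activator MRTF, which respond to actin assembly, 11 of 13 rose and 0 fell in clone 7E, with a median of 0.87, against 4 and 0 in clone 5F. Acta2 rose by 2.02 ± 0.15 (adjusted p = 2.08e-10), Fhl2 by 1.60 ± 0.15 (adjusted p = 5.32e-09), Tagln by 1.35 ± 0.072 (adjusted p = 2.74e-13) and Actb by 0.32 ± 0.045 (adjusted p = 5.15e-06), and in clone 5F Fhl2 by 0.54 ± 0.13 (adjusted p = 0.00529). Their interaction was past the threshold in 10 of 13, with Acta2 at 1.85 ± 0.20 (adjusted p = 5.54e-07), Tagln at 1.42 ± 0.10 (adjusted p = 2.00e-09) and Fhl2 at 1.06 ± 0.19 (adjusted p = 0.000447). Before 4OHT 9 of 13 were lower in clone 7E and 0 higher, Acta2 at -1.36 ± 0.16 (adjusted p = 3.68e-07) and Tagln at -1.11 ± 0.063 (adjusted p = 1.17e-12).

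**Figure D3:**
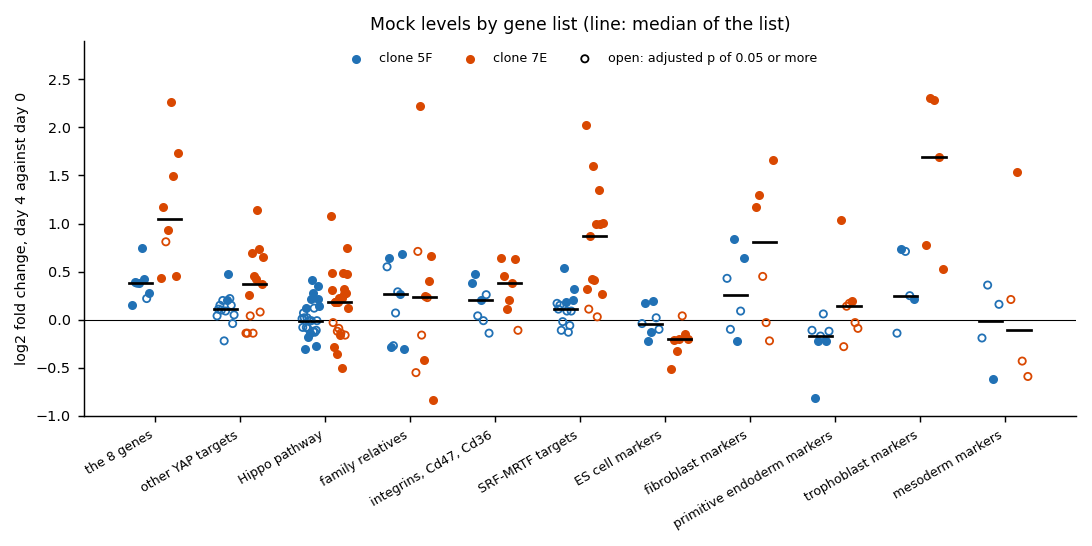
Log2 fold change of mock levels from day 0 to day 4 (y axis) for the 8 genes and each other gene list (x axis) in clone 5F (blue) and clone 7E (orange), where each point is a gene, filled if its adjusted p was under 0.05, and lines are list medians. In clone 7E the medians are 1.05 for the 8 genes, 0.87 for SRF-MRTF targets and 1.69 for 5 trophoblast markers, against -0.20 for embryonic stem cell markers.

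All 7 embryonic stem cell markers were expressed, with a summed level of 79093 to 81153 normalized counts in clone 5F at day 0 and of 70419 to 72090 in clone 7E at day 4. In clone 7E at day 4, 6 of the 7 fell, among them Esrrb (-0.51 ± 0.053, adjusted p = 3.80e-08) and Nanog (-0.33 ± 0.044, adjusted p = 1.56e-06). In clone 5F 2 of the 7 rose and 2 fell, and Nanog was at -0.22 ± 0.043 and Esrrb at -0.04 ± 0.049. Trophoblast markers summed to 2297 to 2352 at day 0 and to 3590 to 3633 at day 4 in clone 7E. Most of that sum was Tfap2c, at 2187 normalized counts on average at day 0 and 3153 at day 4. In this clone 5 of 5 tested rose, led by Gata3 (2.30 ± 0.25, adjusted p = 7.12e-08), Hand1 (2.28 ± 0.45, adjusted p = 0.000272) and Krt7 (1.69 ± 0.11, adjusted p = 1.82e-11). Gata3 and Hand1 rest on low counts, with means of 13.6 and 5.33 at day 0 and 67.6 and 26.2 at day 4. Elf5 stayed under 10 normalized counts. In clone 5F 2 of 5 rose and 0 fell. Krt7 had an interaction of 1.43 ± 0.20 (adjusted p = 2.54e-05). Of the 5 mesoderm markers, 4 were tested in clone 7E and only Kdr was past the threshold (1.54 ± 0.30, adjusted p = 0.000235), and the list summed to 217 to 241 at day 4.

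Fibroblast markers were scarce, at 230 to 295 summed normalized counts in clone 7E at day 4 and 150 to 168 at day 0. Of 10, 6 were tested, and in clone 7E 3 rose and 0 fell, with a median of 0.81. Col1a2 rose there by 1.30 ± 0.41 (adjusted p = 0.0134) and Col1a1 by 1.17 ± 0.22 (adjusted p = 0.000137), whereas Pdgfra was at -0.03 ± 0.18 (adjusted p = 0.919). In clone 5F 2 rose and 1 fell. Thy1 rose by 1.66 ± 0.20 in clone 7E (adjusted p = 3.38e-07) and by 0.64 ± 0.16 in clone 5F (adjusted p = 0.00497), whereas Lum, Dcn, Postn and Twist2 were under 10 in every group. The primitive endoderm markers separated the clones: they summed to 36521 to 37552 in clone 5F at day 0 and to 7620 to 7852 in clone 7E, and 7 of 7 were lower in clone 7E, with Pdgfra at -3.57 ± 0.10 (adjusted p = 4.72e-18), Gata4 at -3.46 ± 0.093 (adjusted p = 9.19e-19), Gata6 at -3.43 ± 0.12 (adjusted p = 2.71e-16) and Lama1 at -2.33 ± 0.044 (adjusted p = 8.71e-22). Within clone 7E they summed to 11036 to 12640 at day 4, where 2 of 7 rose and 0 fell. Most of that increase was Col4a1, which rose by 1.04 ± 0.056 (adjusted p = 3.25e-13), from 3465 to 7110 normalized counts on average. Gata4 (0.14 ± 0.16, adjusted p = 0.494), Gata6 (0.17 ± 0.22, adjusted p = 0.588) and Dab2 (-0.28 ± 0.13, adjusted p = 0.0992) were not past the threshold there. In clone 5F 3 of 7 fell, Dab2 by 0.81 on the log2 scale (SE 0.068, adjusted p = 2.64e-08). In bulk libraries, fewer cells of a type and less RNA per cell cannot be told apart. The part of these cell types in the differences of Thbs1, Ankrd1, Ccn1 and the other genes was not tested.

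Over the 12 mock libraries, Ccn1 and Ccn2 tracked each other with a Pearson r of 0.996 on the log2 scale. Among 10970 genes with a mean of at least 100 normalized counts, the genes most like Ccn1 outside the set were Itga8 (r = 0.993), Lamb3 (0.990), Nes (0.990), Serpinb9b (0.987) and Specc1 (0.985), and those most like Ccn2 were Itga8 (0.995), AU015836 (0.990), Fam13c (0.988), Wls (0.985) and Serpinb9b (0.985). Itga8, an integrin subunit, went from 106 to 678 normalized counts on average in clone 7E and from 133 to 221 in clone 5F. Of the other genes in the set, Ajuba had an r of 0.969 with Ccn1, Axl 0.939, Amotl2 0.887, Lats2 0.872 and Thbs1 0.801. All of these values share the same 12 libraries, which form 4 groups, so a high r mostly describes the order of 4 group means.

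Over all time points, Ccn1 and Ccn2 had the shortest half-lives of the set in each group. The percent of the mock level left during actinomycin D rests on 1 spike-in factor per time point, shared by all groups. In clone 5F at day 0, Ccn1 was down to 7.12% ± 1.73 (SD, n = 2) at 120 min, 2.62% ± 0.543 (SD, n = 3) at 240 min and 0.962% ± 0.0373 at 360 min. The libraries at 360 min held 25 to 26 counts of Ccn1. Ccn2 was at 14.7% ± 2.73 at 120 min, 6.19% ± 0.445 at 240 min and 2.93% ± 0.484 at 360 min. The median over 10535 mRNAs was 59.5% at 120 min and 40.2% at 360 min, so both genes lost most of their mRNA within the first interval. In clone 7E at day 4, where the 2 genes were highest, Ccn1 was at 4.05% ± 0.770 at 120 min and 0.741% ± 0.127 at 360 min, and Ccn2 at 11.9% ± 1.37 and 1.64% ± 0.159 (SD, n = 3).

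Straight lines through ln(normalized count + 1) gave Ccn1 a half-life of 55.8 ± 4.85 min (SE) in clone 5F at day 0, 53.9 ± 5.10 min in the libraries labelled day 4, 59.7 ± 7.18 min in clone 7E at day 0 and 53.4 ± 6.49 min at day 4. In clone 5F at day 0, 0.427% of the 10535 mRNAs decayed faster. The half-life of Ccn2 was 71.9 ± 5.56, 74.1 ± 6.64, 60.8 ± 3.32 and 63.4 ± 4.33 min in the same order. The curve of Ccn1 was steepest before 120 min, and from mock and 120 min libraries alone its half-life was 31.4 ± 1.53 min in clone 5F at day 0 and 25.9 ± 0.869 min in clone 7E at day 4, and that of Ccn2 43.3 ± 2.22 and 39.1 ± 1.26 min. Without the mock libraries the half-life of Ccn1 was instead 87.1 ± 6.32 and 84.8 ± 2.74 min in clone 5F at day 0 and day 4 and 110 ± 7.47 and 99.4 ± 7.80 min in clone 7E. That of Ccn2 was then 105 ± 7.88, 111 ± 8.20, 76.1 ± 2.94 and 84.4 ± 4.86 min. In this fit Amotl2, at 94.0 ± 9.85 and 105 ± 10.8 min in clone 5F and 101 ± 15.1 min in clone 7E at day 0, was shorter than Ccn2 or Ccn1 in those groups, within the errors.

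The remaining genes formed slower classes. In the fit over all times, Lats2 had a half-life of 89.2 ± 7.49 min and Amotl2 of 87.3 ± 4.27 min in clone 5F at day 0. These did not differ beyond their errors, but the fits over parts of the course did. From mock and 120 min libraries alone, Lats2 was at 49.4 ± 1.45 min and Amotl2 at 69.0 ± 4.16 min. Without the mock libraries they were at 132 ± 14.0 and 94.0 ± 9.85 min. Over all times, Ajuba (137 ± 4.51 min), Ankrd1 (139 ± 21.5 min) and Thbs1 (141 ± 4.02 min) were within error of each other. All were shorter than the median mRNA, at 278 min. At 120 min, 18.0% of the mock level was left of Lats2, 30.0% of Amotl2, 47.6% of Thbs1, 50.5% of Ankrd1 and 51.0% of Ajuba. Axl stood apart: it was at 52.8% ± 3.19 (SD, n = 2) at 120 min and still at 51.9% ± 1.67 (SD, n = 3) at 360 min, so a half-life of 406 ± 98.6 min describes a curve that did not fall after 120 min. Axl rests on 62 to 117 counts in these libraries. Lats2 at 360 min rests on 15 to 19 counts, and Ankrd1 in clone 7E at day 0 on 0 to 9, so their late values are limited by depth.

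**Figure D4:**
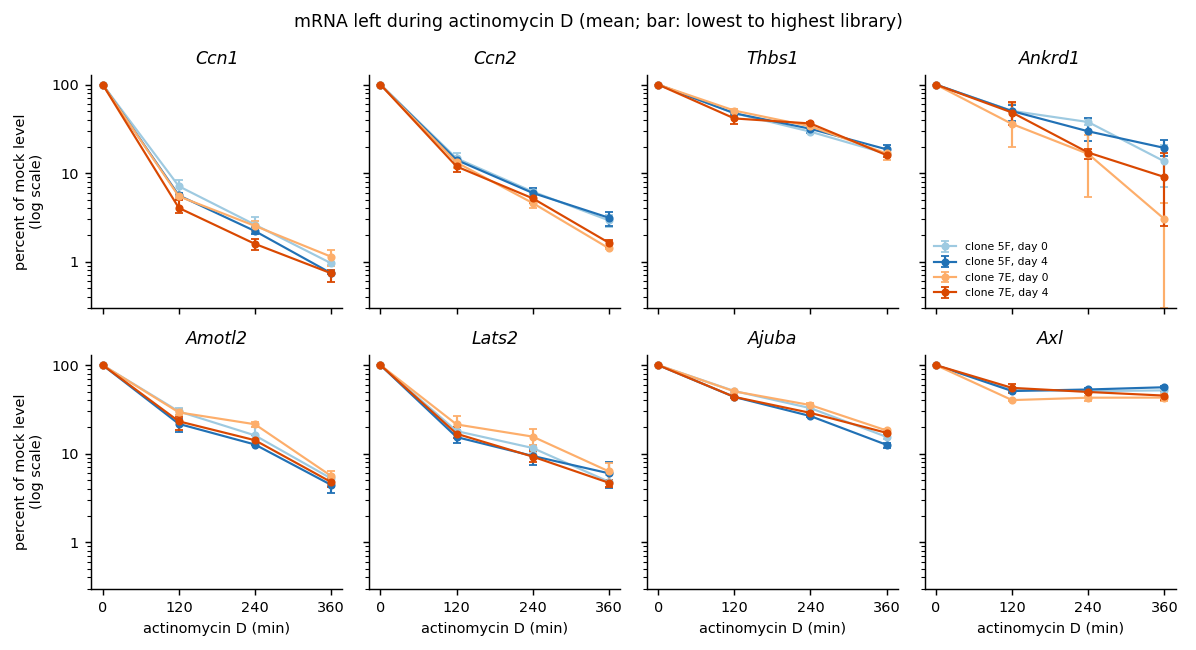
Percent of the mock level left (y axis, log scale) against time in actinomycin D (x axis, min) for each gene in the 4 groups; points are means and bars run from the lowest to the highest library. Ccn1 falls to between 4.05% and 7.12% at 120 min in the 4 groups and Axl stays between 40.3% and 56.3% at all times; a bar of Ankrd1 that reaches 0 is drawn to the foot of the axis.

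No change in decay of the 8 genes was past the threshold. By the interaction of time and day in edgeR, 0 of 8 genes changed in decay in clone 7E, where 0.896% of 17417 genes did, and 0 of 8 in clone 5F, where 0.196% of 17901 did. Between the clones at day 0 it was again 0 of 8, with 0.0338% of 17766 genes. DESeq2 also called 0 in each. With such small shares of all genes called, 0 of 8 does not set these genes apart. At an unadjusted p under 0.05 edgeR had 0, 1 and 2 of the 8 in these comparisons. For Ccn1 the difference in decay, in log2 units per hour, was -0.07 ± 0.16 (SE) in clone 7E and -0.05 ± 0.12 in clone 5F, and for Ccn2 0.05 ± 0.073 and 0.02 ± 0.081. A negative value means faster loss at day 4. For Thbs1 it was 0.01 ± 0.039 and 0.03 ± 0.026 and for Amotl2 -0.06 ± 0.062 and -0.03 ± 0.053, so these errors set the size of a change that could have been seen. Between the clones, Ccn2 differed by -0.17 ± 0.072 and Ankrd1 by -0.27 ± 0.12.

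Single time points of Ajuba are given because both clones differed there. In clone 5F it was at 51.0% of mock at 120 min at day 0 (both libraries) and at 43.7% ± 0.409 (SD, n = 3) in libraries labelled day 4, then at 32.7% ± 1.47 against 26.6% ± 0.785 at 240 min and 15.5% ± 0.816 against 12.6% ± 0.779 at 360 min. In clone 7E it was at 50.6% ± 2.06 against 43.8% ± 0.797 at 120 min, 35.4% ± 2.41 against 28.9% ± 0.888 at 240 min and 18.3% ± 0.750 against 17.2% ± 0.640 at 360 min. The libraries of the 2 days did not overlap at any of these times in either clone. Ajuba was picked out after these values were seen. Each percent divides by the mean of the mock libraries of its group, so the times share that value and are not separate observations. Other genes were separate at some times too. Amotl2 was lower at day 4 in clone 5F at 120 min (30.0% ± 3.87 against 21.7% ± 3.63) and in clone 7E at 120 and 240 min. Ccn1 was lower in clone 7E at each time and in clone 5F at 360 min. Lats2 was lower in clone 5F at 120 min and in clone 7E at 240 min, and Thbs1 in clone 7E at 120 min. Higher at day 4 were, among others, Axl in clone 7E at 120 and 240 min and in clone 5F at 360 min. In clone 7E, Thbs1 was higher at 240 min and Ccn2 at 360 min. How many of all genes were separate in this way was not counted, so nothing is read from these separations. The half-life of Ajuba was 137 ± 4.51 min at day 0 and 124 ± 3.90 min at day 4 in clone 5F, and 153 ± 6.33 and 146 ± 7.20 min in clone 7E. Its change in decay of -0.05 ± 0.021 per hour in clone 5F was the only one of the set with an unadjusted p under 0.05 there.

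The annotated 3′ ends, taken as the longest for each gene, differ in ATTTA, the core of AU-rich elements that mark many unstable mRNAs. Ccn1 has 5 in a 3′ untranslated region of 690 nt, or 7.25 per kb, and 97.0% of 21004 genes were less dense. Ccn2 has 2 in 1608 nt (1.24 per kb), near the median of 1.23. The Ccn2 transcript used for its binding ratios has a shorter 3′ end, of 1067 nt, so this density depends on the transcript chosen. Thbs1 and Lats2 have 6 each, Ankrd1 has 4, Amotl2 and Ajuba 1, and Axl, the gene whose mRNA persisted, 0. At least 1 ATTTA was found in 65.0% of genes. The windows below compare the densest stretch of Ccn1, which has 3, with the first of Ccn2, with ATTTA in capitals.
Ccn1: agaATTTATTTAtaaaattaatcATTTAat
Ccn2: cagtagcacattaATTTAaatctgtgtttt
They lie at chr3:145646994-145647023 on the minus strand and chr10:24597693-24597722 on the plus strand (GRCm38), in the 3′ untranslated regions. No relation of the motif to decay was tested.

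Relative binding is listed for 4 of the 8 genes among 7240 mRNAs, Ccn1 and Ccn2 under their older names Cyr61 and Ctgf. For each mRNA the authors' ratios to SKIV2L, XRN1 and MTR4 sum to 1, and replicates were pooled, so a ratio has no error. XRN1 is the cytoplasmic 5′ to 3′ exonuclease and MTR4 the helicase of the nuclear exosome. Ccn1 had 0.488 for MTR4, 0.360 for SKIV2L and 0.151 for XRN1, and Ccn2 had 0.570, 0.327 and 0.103. Their XRN1 ratios were low, with 10.0% and 4.30% of mRNAs lower. Their MTR4 ratios were above those of 78.1% and 86.5% of mRNAs. Amotl2 had the reverse order, with 0.429 for XRN1, 0.337 for SKIV2L and 0.234 for MTR4, and Ajuba had 0.455 for MTR4, 0.355 for XRN1 and 0.190 for SKIV2L.

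AVEN binding, also given as a ratio to the sum of those 3, was above the median of 0.295 for all 4. It was 0.701 for Amotl2, higher than for 96.6% of mRNAs, 0.614 for Ajuba (94.7%), 0.451 for Ccn2 (81.9%) and 0.430 for Ccn1 (79.0%). For SKIV2L, Ccn1, Amotl2 and Ccn2 were above the median of 0.267 and Ajuba below it. The median over 4 genes was 0.532 for AVEN. Over the other lists with 3 or more mRNAs in the table it ran from 0.271 over 7 other YAP targets to 2.54 over 3 primitive endoderm markers, with 0.303 over 17 Hippo pathway mRNAs and 0.474 over 3 family relatives. RNA-seq of the tagged lines put Ccn1 at 3.85 to 5.07 RPKM and Ajuba at 42.7 to 47.8 RPKM, so the ratios of Ccn1 and Ccn2 come from mRNAs of low level, and their depth is unknown.

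**Figure D5:**
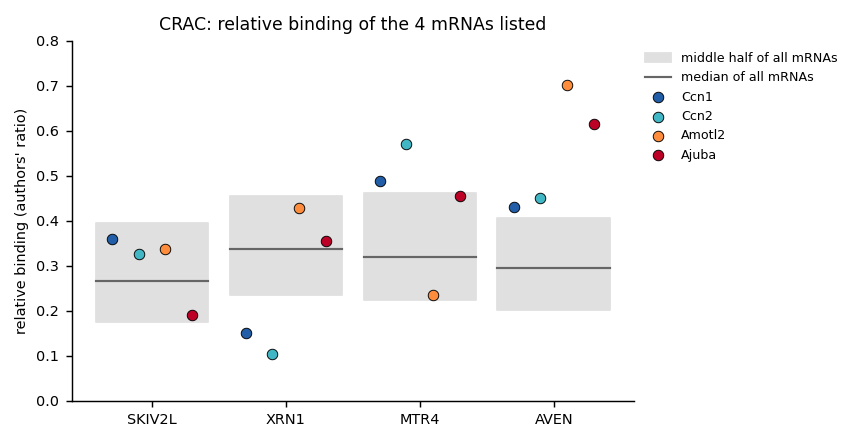
Relative CRAC binding (y axis, the authors' pooled ratio) of the 4 genes listed to SKIV2L, XRN1, MTR4 and AVEN (x axis), where grey boxes span the quartiles of 7240 mRNAs and lines mark their median. Ccn1 and Ccn2 lie below the box for XRN1, at 0.151 and 0.103, and Amotl2 and Ajuba lie highest for AVEN, at 0.701 and 0.614.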

How the data were processed

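The authors mapped RNA-seq reads to mm10 with STAR and deposited raw counts of uniquely mapped reads per gene and ERCC. Relative binding, as deposited, is a ratio of CRAC counts that the authors pooled and scaled. The RPKM values were computed by the authors for the tagged lines. The deposited half-lives, and columns of the authors' own comparisons (fold changes and p-values), were not used. All 47 count columns were matched to samples, and 0 were left unused.

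As in the study's methods, counts were scaled by DESeq2 size factors within a time point and by a single factor for each time point, from 34 ERCC sequences with a mean above 50. Levels and decay were fitted with edgeR 4.0.16 (quasi-likelihood, filterByExpr, Benjamini-Hochberg threshold of 0.05 over all genes tested) in R 4.3.3. The SE was derived from the F statistic, and a change in decay is an interaction with hours. Half-lives used log-linear fits with 1 added to each value. Genes were named with Gencode M21 on GRCm38. The fits were tested on simulated data. Alternatives were own spike-in or TMM scaling, DESeq2 1.42.0, no filter, a replicate block, each replicate left out, other time points and another pseudocount.

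The 8 genes and all lists were chosen with earlier results of these data known. Beside the 8 genes, Skiv2l and Aven, genes were named from each list if among the 2 with the highest mean CPM or the up to 3 with the largest log2 change past the threshold in a mock comparison, and for Ccn1 and Ccn2 the 5 most correlated genes. Groups share replicate numbers in the labels. Deviations of same-numbered mock libraries correlated at 0.18 to 0.42 between the clones at day 0 and at -0.38 to -0.03 between days. Differently numbered libraries reached 0.42 between days in clone 5F, so the values between days do not establish a pairing. Between the clones at day 0, differently numbered libraries ran from -0.29 to 0.10, so same-numbered ones were more alike there. The main fit of that comparison has no replicate term. A replicate block called 8108 genes there against 6477, and the same 6 of the 8 genes. Whether same-numbered libraries share a batch was not tested. The chi-square per gene between replicates was 2.43 or more, so none were copies. Samples of the other experiments were not analysed here.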

Additional observations from a re-analysis of the deposited data

Results flagged for a closer look

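The interaction term of clone and day in edgeR's quasi-likelihood fit was past the threshold for 5 of the 8 genes, where 6.65% of all genes were higher and 5.29% lower. Relative to the bulk of genes, the day 4 effect was larger in clone 7E by 1.50 on the log2 scale for Ccn1, 1.45 for Thbs1, 1.07 for Ccn2, 0.78 for Amotl2 and 0.28 for Ajuba. With own spike-in scaling the values of Amotl2, Ajuba, Myof and Amotl1 turned below 0. The 5 genes were chosen with these values known, so the count is a description and no evidence of a difference. Among genes of the other lists, the difference was 1.85 for Acta2, 1.58 for Ccn4, 1.43 for Krt7, 1.42 for Tagln, 1.07 for Amot, 1.06 for Fhl2, 0.66 for Myof and 0.57 for Amotl1. Each clone is 1 line, and the groups of 3 libraries are too small for a test of single outlying libraries.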

How the results depend on the processing

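Settings are given beside the main value. In the day comparison of clone 7E, own spike-in scaling called 14976 genes (259 higher, 14717 lower) against 6551 (3381 and 3170), and for the difference between the clones 14373 (54 and 14319) against 2055 (1145 and 910). It gave 1063 higher and 2351 lower in clone 5F against 2095 and 1903, and 1619 and 6290 between the clones at day 0 against 3258 and 3219. Under it the day 4 values in clone 7E reversed to -0.65 for Lats2, -0.67 for Ajuba, -0.16 for Axl, -0.36 for Nt5e, -0.41 for F3, -0.72 for Ptpn14, -0.35 for Wwtr1, -0.02 for Amot, -0.78 for Actb, -0.44 for Thbs4, -0.45 for Cd47, -0.46 for Itgb3, -0.71 for Itgb1, -0.06 for Col4a1 and -0.98 for Yap1, and the difference between the clones to -0.24 for Amotl2, -0.75 for Ajuba, -0.37 for Myof and -0.46 for Amotl1. Amotl2 and Axl were no longer called in clone 7E, Ajuba and Axl in clone 5F, nor Ccn2 for the difference, where Axl and Lats2 were called lower. Of 65 values of other named genes in the mock comparisons, 10 lost their call without reversing. This scaling divides each library by its own spike-in counts, which were highest in clone 7E at day 4. Leaving out 1 replicate gave 1862 to 4399 genes called in clone 5F (main 3998), 4320 to 5949 in clone 7E, 4694 to 6084 between the clones at day 0 (main 6477) and 753 to 1446 for the difference.

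For decay, 0 of the 8 genes were called in each alternative, which does not set them apart where so few genes were called. Counts of genes with changed decay were small and unstable. In clone 5F they were 35 in the main fit, 19 with own spike-in scaling (16 higher and 3 lower, against 24 and 11) and 2 to 4 with 1 replicate left out. In clone 7E they were 156 (71 and 85, against 76 and 29 under own spike-in scaling), with 280 under TMM, 270 under DESeq2, 84 without 360 min and 26 to 51 with 1 replicate left out. Between the clones they were 6, with 2 under own spike-in scaling, 66 under TMM (65 higher and 1 lower, against 5 and 1), 37 under DESeq2, 3 with no filter, 1 without 360 min and 0 with any replicate left out. The cause was not tested.

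The median half-life of the 8 genes was 113 and 110 min in clone 5F at day 0 and day 4 and 111 and 106 min in clone 7E. From mock and 120 min it was 90.5, 77.1, 80.0 and 75.4 min, and without the mock libraries 128, 155, 142 and 131 min, where Axl did not decline in 2 groups and was ranked slowest. In clone 7E at day 0 it was 101 min with own spike-in scaling and 99.4 min with a pseudocount of 0.5. Leaving out 1 replicate gave 110 to 114, 107 to 113, 108 to 118 and 103 to 114 min.

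With a replicate block, 2951 genes were called in clone 5F, 6012 in clone 7E, 8108 between the clones at day 0 and 1930 for the difference, and for decay 28, 116 and 7. The block lost Ajuba and Axl in clone 5F and Yap1 in both clones, and lost no other call named in the text. Of 65 values of other named genes in the mock comparisons, 5 lost their call with DESeq2 and 1 with no filter on low counts. Without 1 replicate, calls were also lost for Nt5e, Mertk, Thbs4 and Col1a2 in clone 7E, Taok3, Thbs4, Ccn4 and Thy1 in clone 5F, Thbs2 between the clones, the difference of Ccn4, and Yap1 in both clones. Depth limits Ankrd1, Lats2 and Axl most.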
